A study of Rattus norvegicus with 12 samples.

Results

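Hemopexin (Hpx) and 9 genes of heme and iron handling were described in adult rat ventricular myocytes (ARVMs), cardiomyocytes isolated from the hearts of male Sprague Dawley rats. Hpx was chosen by its FPKM in these samples, because it rose with NR4A2. The other 9 genes (Hmox1, Hmox2, Tfrc, Fth1, Ftl1, Slc40a1, Slc11a2, Hp, and Cp) were chosen for their function, with earlier results of these data known. The 10 genes are listed with 12 transcripts, out of 17301 gene names and 18752 transcripts in all. ARVMs were transduced at 50 MOI with an adenovirus carrying human NR4A2, an orphan nuclear receptor, under the cytomegalovirus promoter (Ad-h-NR4A2, 6 samples), or with an adenovirus carrying green fluorescent protein (Ad-GFP, 6 samples), and RNA was collected after 48 h. Both groups thus received a virus, and no untransduced cells are among the samples. The samples of each group carry the numbers 24 to 29. All levels are FPKM as deposited by the authors, that is, fragment counts scaled to transcript length and to sequencing depth, so that levels of different genes can be set side by side.

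Heme is toxic when free. In plasma, hemopexin binds free heme and haptoglobin (Hp) binds hemoglobin, and both are made mainly by the liver as acute phase proteins. Inside cells, heme oxygenase opens the heme ring and releases iron, carbon monoxide, and biliverdin: heme oxygenase-1 (Hmox1) is the inducible form and heme oxygenase-2 (Hmox2) the constitutive one. Iron enters through the transferrin receptor (Tfrc), leaves the endosome through the divalent metal transporter DMT1 (Slc11a2), is stored in ferritin, a shell of heavy (Fth1) and light (Ftl1) chains, and leaves the cell through ferroportin (Slc40a1), aided by ferroxidases such as ceruloplasmin (Cp). In the heart, loss of ferroportin or of the transferrin receptor from cardiomyocytes is known to cause cardiomyopathy.

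The promoter of Hpx is shown first because it holds the letters of the NBRE (AAAGGTCA), the sequence to which NR4A receptors are known to bind as monomers. The table of promoters from RefSeq (GRCr8) had entries for 6 of the 10 genes, 8 promoters in all, and none for Hmox1, Fth1, Ftl1, and Hp. The 250 bases before the start of Hpx, chr1:169352156-169352405 (GRCr8, minus strand), are given 5′ to 3′, with the match in capitals.
Hpx promoter: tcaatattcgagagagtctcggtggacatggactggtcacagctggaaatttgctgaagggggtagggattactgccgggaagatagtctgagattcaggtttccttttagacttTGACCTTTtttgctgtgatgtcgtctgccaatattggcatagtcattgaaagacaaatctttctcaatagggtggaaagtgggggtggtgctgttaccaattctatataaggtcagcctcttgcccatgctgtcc
The capitals are the reverse complement of the motif and lie at positions -135 to -128 from the start. Searched on both strands over windows of 300 bases, 250 before and 50 after the start, NBRE letters were found in 1.43% of 33469 promoters. They were not found in the windows of Hmox2, Tfrc, Slc40a1, Slc11a2, and Cp, nor in any of the 87 promoters matched to the pathway lists described further on. At a share of 1.43%, hardly any match would be found in so few promoters, so these absences do not set Hpx apart. The core of the antioxidant response element (TGACNNNGC, both strands, in 12.1% of promoters) was found in Hpx at positions -99 to -91, where it does not overlap the NBRE letters, and in 1 of 2 promoters of Hmox2. The loop of the iron-responsive element, searched on the transcript strand in the 50 bases after the start, was found in 1.57% of promoters and in none of these 8. The rest of each transcript, its 3′ end included, was not searched, so that elements lying there would be missed. The search therefore cannot tell whether these transcripts hold the element. Such matches describe letters in a window and do not show that a protein binds there.

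The rat Nr4a2 transcript, in which fragments of the human insert cannot be told apart, was at 0.626 to 1.4 FPKM in Ad-GFP samples and at 445 to 592 in Ad-h-NR4A2 samples. The depth behind the values was 18800000 to 28000000 fragments in Ad-GFP samples and 21500000 to 27300000 in Ad-h-NR4A2 samples. Transcripts of cardiomyocytes dominated, with Tnnt2 at 6320 FPKM or more in each Ad-GFP sample, whereas the hemoglobin genes Hba1, Hba2, Hbb, and Hbb-b1 did not exceed 0.186 FPKM and albumin (Alb) 0.029 FPKM in any Ad-GFP sample. Of 6 cardiomyocyte markers, 3 were lower after Ad-h-NR4A2 at an adjusted p below 0.05 and none higher (limma on log2 FPKM, p values adjusted after Benjamini and Hochberg), where 21.7% of all genes were lower and 19.3% higher. With same-numbered samples paired, 4 of the 6 were lower. In that fit, 59.4% of all genes had an adjusted p below 0.05 in either direction (limma). In bulk samples, fewer cells of a type and less RNA per cell cannot be told apart.

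In Ad-GFP samples, the genes spanned more than 5 orders of magnitude. Fth1 had the highest level, 7074 ± 944 FPKM (SD, n = 6), rank 7 of the 10950 genes tested. Ftl1 followed with 606 ± 99.9 FPKM, Hmox1 with 310 ± 57.0, Hmox2 with 40.4 ± 2.25, Tfrc with 24.9 ± 6.24, Slc40a1 with 16.2 ± 1.35, Slc11a2 with 14.0 ± 1.29, Cp with 3.37 ± 1.21, Hp with 0.592 ± 0.179, and Hpx with 0.0368 ± 0.00948. Among neighbors in this order, only the sample ranges of Slc40a1 (13.9 to 17.7) and Slc11a2 (12.6 to 15.9) overlapped. After Ad-h-NR4A2, Slc11a2 averaged more (12.7 ± 1.398 FPKM) than Slc40a1 (10.9 ± 2.03), with ranges that still overlapped, and Hpx moved from the lowest level to 11.6 ± 4.29 FPKM, a mean within the ranges of Slc40a1 (8.63 to 14.6) and Slc11a2 (11.1 to 14.8).

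**Figure D1:**
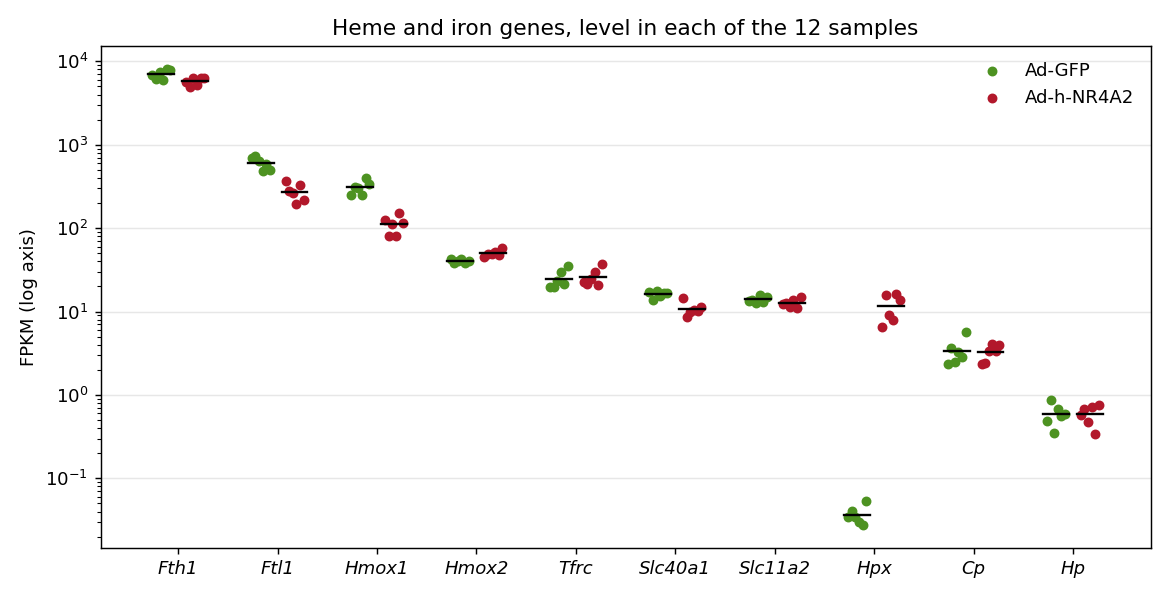
FPKM (log axis) of the 10 genes in each of the 12 samples, with points for samples and black bars for group means. Hpx lies between 0.0277 and 0.0540 FPKM in Ad-GFP samples and between 6.51 and 16.3 in Ad-h-NR4A2 samples, while no other gene moves by as much as 10-fold.

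Hpx (NM_053318, chromosome 1, 177429464 to 177436972, Rn5) was close to the limit of detection without NR4A2. Ad-GFP samples 24 to 28 had 0.0343, 0.0404, 0.0346, 0.0299, and 0.0277 FPKM, which stand for 1 fragment each, and sample 29 had 0.0540 FPKM, or 2 fragments. In Ad-h-NR4A2 samples 24 to 29, Hpx was at 6.51, 15.98, 9.02, 7.83, 16.3, and 13.7 FPKM, which stand for 186 to 578 fragments a sample. The groups did not overlap, and among Ad-h-NR4A2 samples 25, 28, and 29 were high and 24, 26, and 27 low. On the log2(FPKM + 0.1) scale, the difference was 6.33 (SE 0.21), and 5.62 to 7.001 in the 6 same-numbered pairs. With a pseudocount of 1 it was 3.52 and with 0.01 it was 7.88, so that the size of the rise on this scale is set by the pseudocount. Summed over samples, 2251 fragments against 7 give a ratio of 321 per unit of depth (95% interval 155 to 799, exact binomial, counting error only). These values chose the gene and are given without a test. Hpx also passed the filter of a value above 0 in all samples by a single fragment in 5 of them.

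The nearest genes tested on both sides of Hpx had smaller differences. Apbb1, which encodes an adaptor of the amyloid precursor protein and lies 19513 bp away (177393536 to 177409951), went from 20.4 ± 1.01 to 34.0 ± 2.79 FPKM (log2 fold change 0.74, SE 0.06, limma adjusted p = 4.42e-07). Trim3, an E3 ubiquitin ligase 10542 bp away on the other side (177447514 to 177470193), went from 9.32 ± 0.743 to 7.99 ± 0.789 FPKM (log2 fold change -0.22, limma adjusted p = 0.0341). Among 8977 other genes whose mean FPKM reached 1, those most like Hpx over the 12 samples on the log2(FPKM + 0.1) scale were Gys2, liver glycogen synthase (Pearson's r = 0.992), Rhpn1 (0.991), Usp28, a deubiquitinase (0.991), Trim5 (0.991), and Nr4a2 (0.991). These points form 2 clusters, the groups, so that the coefficients describe mainly the difference between them. That difference also chose Hpx, and the likeness is given without a test. Gys2, Rhpn1, and Nr4a2 averaged 0.0627, 0.368, and 0.884 FPKM in Ad-GFP samples. These 3 genes reached a mean of 1 only through the Ad-h-NR4A2 samples.

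The remaining 9 genes were compared between groups with limma on log2(FPKM + 0.1), fitted to all 10950 genes above 0 in every sample. An adjusted p below 0.05 was reached by 5 of the 9, 4 lower (Hmox1, Ftl1, Slc40a1, and Fth1) and 1 higher (Hmox2) in Ad-h-NR4A2 samples. Of all genes tested, 40.9% reached this threshold, 21.7% lower and 19.3% higher. A gene was called differentially expressed when the ratio of group means was also at least 1.5 in either direction, which held for 15.2% of all genes, 7.24% lower and 7.94% higher. Of the 9, Hmox1 and Ftl1 were differentially expressed, both downregulated. The groups did not overlap for 21.5% of all genes tested, 10.9% higher and 10.6% lower. The median log2 fold change of the 9 genes was -0.14, compared with -0.02 for all genes. With same-numbered samples paired in a replicate block, 6 of the 9 had an adjusted p below 0.05, Slc11a2 being added, while the share of all genes rose to 59.4%.

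**Figure D2:**
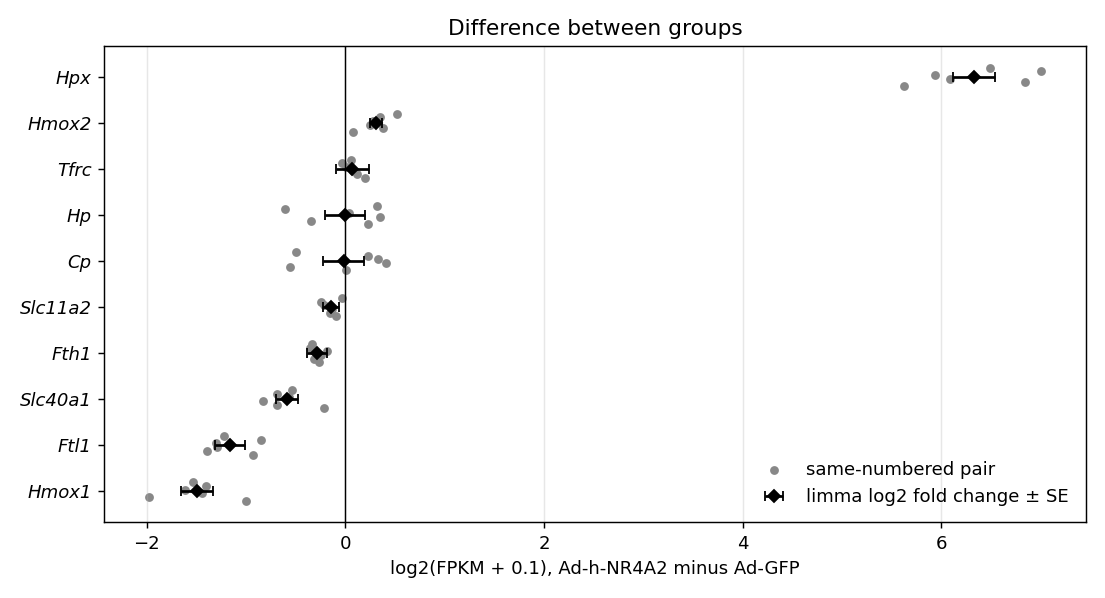
Difference in log2(FPKM + 0.1), Ad-h-NR4A2 minus Ad-GFP, for each gene. Diamonds are limma log2 fold changes with SE, and gray points the 6 same-numbered pairs. Hmox1 and Ftl1 lie below -0.85 in every pair, Fth1 and Slc40a1 below 0 in every pair, and Hp and Cp on both sides of 0.

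Hmox1 (NM_012580, chromosome 19, 25622556 to 25629377, Rn5) had the largest fall of the 9 genes. Ad-GFP samples 24 to 29 had 251, 315, 304, 249, 401, and 337 FPKM, and Ad-h-NR4A2 samples 24 to 29 had 125, 80.1, 112, 81.2, 152, and 117 FPKM. The highest Ad-h-NR4A2 sample, 28, was still below the lowest Ad-GFP sample, and sample 28 was the highest of both groups. Mean FPKM went from 310 ± 57.0 to 111 ± 27.4, a ratio of 0.359 (log2 fold change -1.49, SE 0.16, limma adjusted p = 7.24e-06). It was lower in 6 of 6 same-numbered pairs. An exact permutation test that left the pairs aside gave a two-sided p of 0.00216, the smallest that 6 samples against 6 allow.

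Hmox2 (chromosome 10, 9756647 to 9800842, Rn5) moved the other way and by less. Its main transcript, NM_001277073, had 43.2, 37.9, 40.8, 42.4, 37.8, and 39.9 FPKM in Ad-GFP samples 24 to 29 and 45.5, 49.5, 48.7, 51.4, 48.1, and 57.2 FPKM in Ad-h-NR4A2 samples. The groups did not overlap, which held for 21.5% of all genes tested, and the gap between them was small. The ratio of means was 1.24 and the log2 fold change 0.31 (SE 0.06, limma adjusted p = 6.66e-04, higher in 6 of 6 pairs), so that it stayed below the limit of 1.5. The second transcript, NM_024387, was above 0.01 FPKM in Ad-GFP samples 25 and 26 (0.272 and 0.536) and Ad-h-NR4A2 sample 26 (0.712) alone. Within a sample, Hmox1 FPKM was 5.81 to 10.6 times that of Hmox2 in Ad-GFP samples and 1.58 to 3.16 times in Ad-h-NR4A2 samples, a ratio chosen after the values were seen and given without a test.

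Both chains of ferritin were lower after Ad-h-NR4A2. Ftl1 (NM_022500, chromosome 1, 102527136 to 102528980, Rn5) had 690, 727, 646, 482, 593, and 501 FPKM in Ad-GFP samples 24 to 29 and 364, 276, 264, 195, 328, and 215 FPKM in Ad-h-NR4A2 samples. The groups did not overlap, and samples 27 and 29 were the lowest of both. Mean FPKM went from 606 ± 99.9 to 274 ± 64.6, a ratio of 0.451 (log2 fold change -1.16, SE 0.15, limma adjusted p = 4.00e-05). In RefSeq a further gene, LOC100360087, carries Ftl1 as a synonym, and fragments that the 2 genes may share were not examined, which leaves the value of Ftl1 uncertain to that extent.

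Fth1 (NM_012848, chromosome 1) had 6826, 6100, 7471, 5925, 8150, and 7972 FPKM in Ad-GFP samples 24 to 29 and 5663, 4890, 6310, 5213, 6358, and 6335 FPKM in Ad-h-NR4A2 samples. The groups overlapped, but the Ad-h-NR4A2 sample was lower in 6 of 6 same-numbered pairs, by 0.18 to 0.36 on the log2 scale. Mean FPKM went from 7074 ± 944 to 5795 ± 640.0, a ratio of 0.819 (log2 fold change -0.28, SE 0.10, limma adjusted p = 0.0336). This call is weak without the block. The adjusted p was 0.0538 to 0.0758 without any single one of Ad-GFP samples 26, 28, or 29 or Ad-h-NR4A2 samples 24, 25, or 27, 0.105 with quantile normalization, and 0.187 with no filter on low values, whereas it was 8.13e-05 with the replicate block (limma). The position listed for Fth1 (232857004 to 233097316, Rn5) covers 6 gene names and is not that of Fth1 alone. Fth1 FPKM was 8.39 to 15.9 times that of Ftl1 in Ad-GFP samples and 15.6 to 29.5 times in Ad-h-NR4A2 samples, again without a test.

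Slc40a1 (NM_133315, chromosome 9, 52560181 to 52578109, Rn5), the exporter of iron, had 16.9, 13.9, 17.7, 15.3, 16.7, and 16.6 FPKM in Ad-GFP samples 24 to 29 and 14.6, 8.63, 9.94, 10.3, 10.3, and 11.4 FPKM in Ad-h-NR4A2 samples. Ad-h-NR4A2 sample 24 reached into the Ad-GFP range, and the other 5 lay below it. Mean FPKM went from 16.2 ± 1.35 to 10.9 ± 2.03, a log2 fold change of -0.59 (SE 0.11, limma adjusted p = 6.19e-04, and two-sided exact permutation p = 0.00433). The ratio of 0.671 fell just short of the fold limit. On the TPM scale it was 0.663, and it was 0.653, 0.664, 0.625, and 0.664 without Ad-GFP sample 25, Ad-GFP sample 27, Ad-h-NR4A2 sample 24, and Ad-h-NR4A2 sample 29, respectively, which made Slc40a1 differentially expressed.

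**Figure D3:**
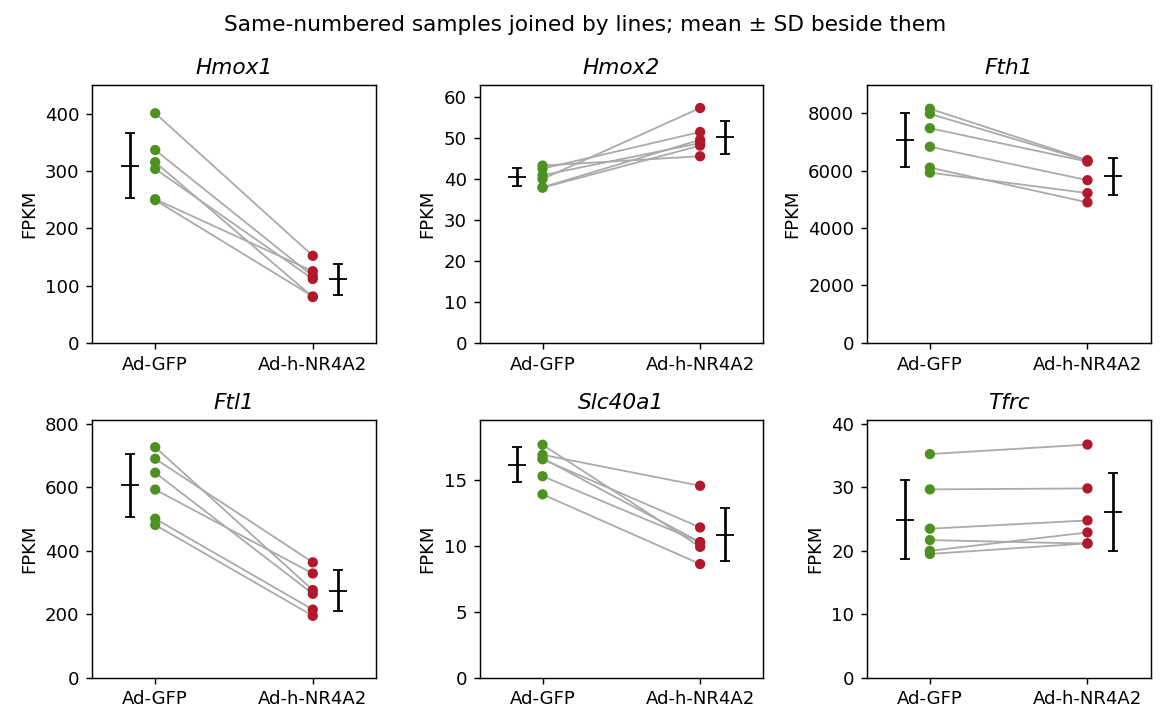
FPKM of 6 genes in Ad-GFP and Ad-h-NR4A2 samples, same-numbered samples joined by lines, with mean ± SD of each group beside them. All lines fall for Hmox1, Ftl1, Fth1, and Slc40a1, all rise for Hmox2, and those of Tfrc run nearly level from starting values between 19.5 and 35.2 FPKM.

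The importers of iron did not pass the test without the block. Tfrc (NM_022712, chromosome 11, 74479841 to 74502561, Rn5) had 20.0, 19.5, 23.4, 29.6, 21.7, and 35.2 FPKM in Ad-GFP samples 24 to 29 and 22.9, 21.1, 24.8, 29.8, 21.1, and 36.7 FPKM in Ad-h-NR4A2 samples. Samples 27 and 29 were high in both groups, and the pairs differed by -0.04 to 0.19 on the log2 scale. Its log2 fold change of 0.07 had an SE of 0.17 (limma adjusted p = 0.769 without the block and 0.124 with it). Slc11a2 (NM_013173, chromosome 7, 139837654 to 139870637, Rn5) had 12.6 to 15.9 FPKM, with a median of 13.6, in Ad-GFP samples and 11.1 to 14.8 FPKM, with a median of 12.5, in Ad-h-NR4A2 samples. It was lower in 6 of 6 pairs, by 0.03 to 0.24 on the log2 scale. The log2 fold change of -0.14 (SE 0.08) had an adjusted p of 0.175 without the block and 0.0119 with it (limma).

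The plasma proteins other than hemopexin were low, and their groups overlapped. Hp (NM_012582, chromosome 19, 52921384 to 52925934, Rn5) had 0.353 to 0.877 FPKM, with a median of 0.576, in Ad-GFP samples and 0.337 to 0.755 FPKM, with a median of 0.626, in Ad-h-NR4A2 samples. These levels stand for 8 to 18 and 9 to 19 fragments a sample. Its ratio of summed fragments was 0.998 (95% interval 0.733 to 1.36, exact binomial, counting error only). The interval leaves out the spread between samples. It does not give the smallest change of Hp that could have been detected. The main transcript of Cp, NM_001270961, had 2.37 to 5.66 FPKM, with a median of 3.04, in Ad-GFP samples and 2.37 to 4.08 FPKM, with a median of 3.35, in Ad-h-NR4A2 samples, and Ad-GFP sample 29 was the highest. Its second transcript, NM_012532, had 0.309 to 0.892 and 0.283 to 0.817 FPKM. The adjusted p was 0.992 for Hp and 0.961 for Cp (limma).

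The genes around these 10 were followed in lists, which were also chosen with earlier results of these data known. Of 106 genes in 7 lists, 83 were tested. At an adjusted p below 0.05, 15 were higher and 22 lower (44.6%, compared with 40.9% of all genes), and 7 were upregulated and 7 downregulated past the fold limit (16.9%, compared with 15.2% of all genes). Both shares are near those of all genes, and the results below are those of single genes. By direction, 19.3% of all genes were higher and 21.7% lower, and 7.94% were upregulated and 7.24% downregulated. Groups without overlap were found for 21.5% of all genes. Counts without the block are to be read beside these shares. With the replicate block, 59.4% of all genes had an adjusted p below 0.05 in either direction. Counts with the block are to be read beside this share.

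Of 9 genes tested for synthesis of heme, none was differentially expressed, and Alas1, the first and rate-limiting enzyme outside the erythroid lineage (94.1 ± 7.44 to 79.2 ± 6.84 FPKM, adjusted p = 0.00653), Alad (adjusted p = 0.0489), and Fech, which inserts the iron (89.7 ± 4.13 to 80.0 ± 4.40 FPKM, adjusted p = 0.00950), were lower. With the replicate block, 3 genes of this list were lower and 4 higher, where 59.4% of all genes passed in either direction. Of 11 genes tested for transport and breakdown of heme, Flvcr2 and Lrp1 were upregulated. Flvcr2, a transporter first described as a heme importer, rose from 0.381 ± 0.0510 to 4.84 ± 1.06 FPKM, and the groups did not overlap (log2 fold change 3.34, SE 0.14, limma adjusted p = 9.01e-10). Lrp1, the receptor that takes up hemopexin with its heme, had 0.608 ± 0.215 and rose to 1.63 ± 0.640 FPKM (log2 fold change 1.25, SE 0.27, limma adjusted p = 0.00240), with overlap of the groups. Biliverdin reductases, which act after heme oxygenase, had adjusted p values of 0.831 (Blvra) and 0.329 (Blvrb) without the block and 0.631 and 0.0277 with it. Pgrmc1 (ratio 0.728) and the heme transporter Slc48a1 (ratio 0.809) were lower without passing the fold limit, and with the block 4 genes of this list were lower in place of 2.

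Of 12 genes tested for uptake and release of iron, 3 were downregulated and 1 was upregulated, where 7.24% and 7.94% of all genes were. Slc39a8, a metal importer of the ZIP family, fell from 2.41 ± 0.643 to 0.975 ± 0.320 FPKM (log2 fold change -1.24, SE 0.23), and the metalloreductase Steap2 from 21.2 ± 2.91 to 12.7 ± 2.43 FPKM (log2 fold change -0.74, SE 0.12). Steap1, of the same family, had 1.42 ± 0.455 and 0.855 ± 0.236 FPKM (adjusted p = 0.0306, limma). Its adjusted p was 0.0570 to 0.0675 without any single one of Ad-GFP samples 27, 28, or 29 or Ad-h-NR4A2 samples 24 or 26, and 0.0734 with no filter on low values. Steap3 was lower without passing the fold limit (ratio 0.767, limma adjusted p = 0.0018). Steap4 went the other way, with 4.52 ± 3.44 and 6.36 ± 3.09 FPKM (limma adjusted p = 0.302 without the block and 0.00416 with it). Slc25a28, or mitoferrin-2, which brings iron into mitochondria, rose from 31.2 ± 2.38 to 126 ± 33.6 FPKM without overlap of the groups (log2 fold change 1.97, SE 0.15, limma adjusted p = 2.66e-07). Its paralog Slc25a37, or mitoferrin-1, rose from 9.82 ± 1.29 to 12.9 ± 1.86 FPKM (ratio 1.31, adjusted p = 0.00935, limma). At an adjusted p below 0.05, 2 genes of this list were higher and 5 lower without the block. Of all genes, 19.3% were higher and 21.7% lower. With the block, 3 genes of this list were higher and 7 lower, where 59.4% of all genes passed in either direction.

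Of 13 genes tested for storage and regulation of iron, Ncoa4 and Bmp2 were upregulated and Bach1 was downregulated. Ncoa4, the receptor that carries ferritin to lysosomes, rose from 57.3 ± 3.01 to 102 ± 14.1 FPKM without overlap of the groups (log2 fold change 0.82, SE 0.08, limma adjusted p = 3.22e-06). Bmp2, a ligand that induces hepcidin in the liver, had 1.01 ± 0.490 and 2.33 ± 1.00 FPKM (adjusted p = 0.0181, and 0.0530 with no filter on low values). Bach1, a heme-binding repressor of Hmox1, had 13.2 ± 2.81 and 8.52 ± 2.16 FPKM (ratio 0.644, adjusted p = 0.00937). Without Ad-GFP sample 24, Ad-GFP sample 28, or Ad-h-NR4A2 sample 27, its ratio was 0.677, 0.673, or 0.679 and short of the fold limit. Hemojuvelin (Hfe2), a coreceptor in the control of hepcidin, went from 227 ± 16.9 to 153 ± 15.3 FPKM without overlap (ratio 0.674, adjusted p = 1.47e-05, limma). The iron regulatory proteins Aco1 and Ireb2 had adjusted p values of 0.117 and 0.0703 without the block and 0.0207 and 0.00907 with it, with ratios of 1.10 and 0.917. Hamp, which encodes hepcidin, the hormone that closes ferroportin, had 7 ± 1.83 and 4.77 ± 1.43 FPKM (limma adjusted p = 0.0607 without the block and 3.88e-04 with it). In all, 3 genes of this list were lower at an adjusted p below 0.05 without the block and 7 with it. The block raised the share of all genes, in either direction, from 40.9% to 59.4%. Among 19 genes tested for assembly of iron-sulfur clusters, 5 were higher and 1 lower at an adjusted p below 0.05. Of all genes, 19.3% were higher and 21.7% lower. None of the 19 passed the fold limit. Fdx1, ferredoxin 1, had the largest ratio of these (1.44).

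Hmox1 and both ferritin chains are known targets of NRF2 (Nfe2l2), the factor that acts at antioxidant response elements. Of 13 other NRF2 targets tested, 8 were lower and 2 higher at an adjusted p below 0.05, where 21.7% and 19.3% of all genes were. The rest did not reach this threshold. Past the fold limit, 3 were downregulated, where 7.24% of all genes were. Osgin1 fell from 58.8 ± 9.87 to 25.2 ± 9.35 FPKM without overlap (log2 fold change -1.28, SE 0.20, limma adjusted p = 2.17e-04). Srxn1, or sulfiredoxin, had 109 ± 24.8 and 66.5 ± 19.1 FPKM (ratio 0.608), and Gsr, glutathione reductase, had 40.6 ± 7.21 and 24.6 ± 5.77 FPKM (ratio 0.607). Nqo1 (ratio 0.724) and Gclc (ratio 0.790) were lower, and Prdx1 (ratio 1.10) was higher. The median log2 fold change of the list was -0.33, compared with -0.02 for all genes. Nfe2l2 itself had 102 ± 10.1 and 91.1 ± 7.44 FPKM (adjusted p = 0.0941 without the block and 0.00406 with it, limma).

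**Figure D4:**
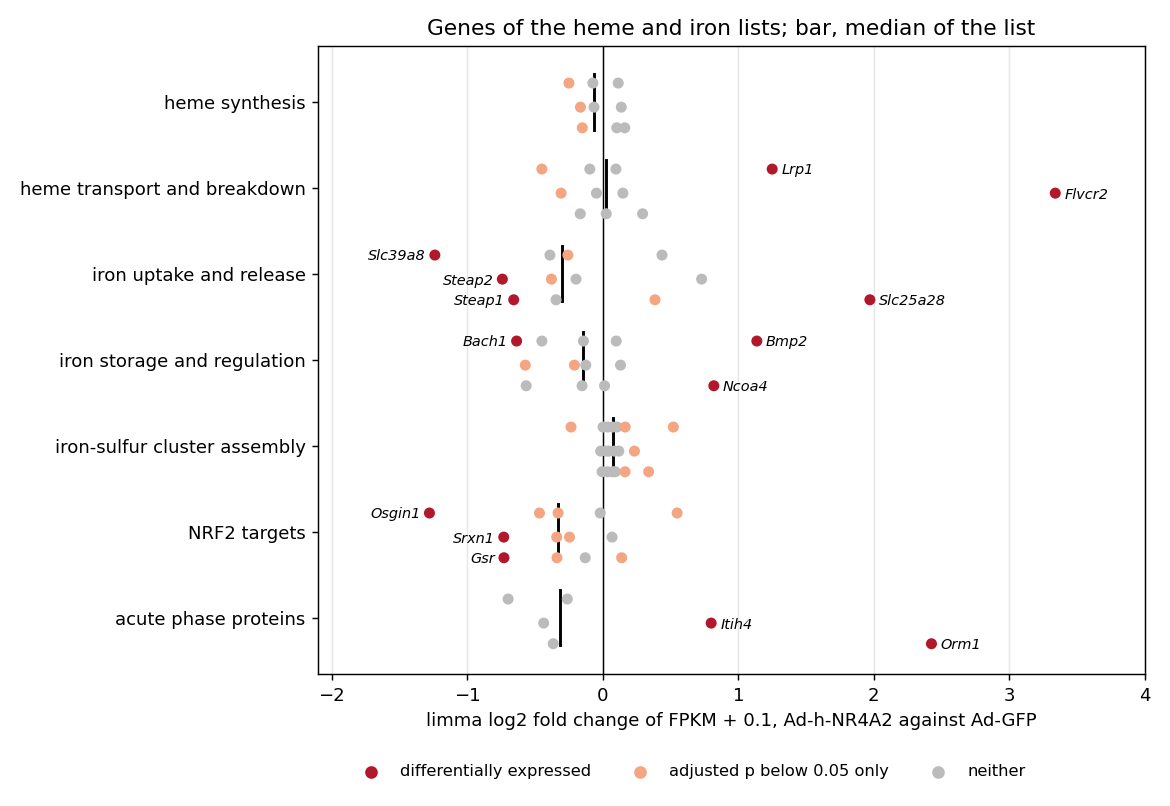
limma log2 fold changes of the genes tested in the 7 lists, with the median of each list as a black bar. Genes that were differentially expressed are in dark red and named, from Osgin1 at -1.28 to Flvcr2 at 3.34, and of the genes that were not, only Steap4 and C3 lie more than 0.6 from 0.

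Macrophages are also rich in Hmox1, Ftl1, and Slc40a1, and markers of these cells were set beside the falls of these genes. Of the 7 macrophage markers in the files, 4 were tested and 1 was differentially expressed, Csf1r, the receptor of macrophage colony-stimulating factor, which rose from 10.1 ± 3.87 to 40.2 ± 2.35 FPKM. The summed level of the 7 was 6.69 to 17.6 FPKM in Ad-GFP samples and 37.7 to 45.6 in Ad-h-NR4A2 samples, nearly all of it Csf1r. Cd68 had 0.463 ± 0.194 and 0.482 ± 0.210 FPKM, and Cd163, the receptor of haptoglobin bound to hemoglobin, 0.0193 ± 0.0144 and 0.0232 ± 0.0208 FPKM. Hepatocyte markers were examined because the liver makes hemopexin. Their summed level was 7.68 to 12.4 FPKM in Ad-GFP samples and 5.50 to 11.7 in Ad-h-NR4A2 samples, most of it Ttr. None of 2 tested reached an adjusted p below 0.05 (both were lower with the block), and Alb averaged 0.00897 FPKM in Ad-GFP and 0.0372 FPKM in Ad-h-NR4A2 samples. In the other lists of cell types than cardiomyocytes, no gene was higher at an adjusted p below 0.05. Lower were 1 of 6 fibroblast and 1 of 3 smooth muscle markers tested, Col3a1 (3.64 ± 1.42 to 1.78 ± 0.560 FPKM) and Myh11 (3.05 ± 0.462 to 1.97 ± 0.374 FPKM). None of 5 endothelial, 1 erythroid, and 1 neutrophil markers tested was lower. Of all genes, 21.7% were lower, 19.3% higher, and 15.2% differentially expressed. With the block, 3 fibroblast and 1 endothelial markers were lower, where 59.4% of all genes passed in either direction. Their part in the results was not tested.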

How the data were processed

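The authors prepared stranded mRNA libraries, sequenced the 12 samples in 1 pool with paired-end reads, aligned to rat Rn5 with STAR, and quantified RefSeq transcripts with Cufflinks. The deposited FPKM of 18752 transcripts per sample were used, without the authors' own filters. Listed starts were converted to count from 1. None of the 10 genes had a failed status.

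Members and lists were chosen with earlier results of these data known. For each gene name, the transcript of highest mean level was kept. Names above 0 in all samples (10950) were fitted as log2(FPKM + 0.1) with limma 3.58.1 (eBayes with trend, two-sided, Benjamini-Hochberg) in R 4.3.3. The pseudocount understates the change of low genes. The paper's statistics are unpaired, and so was the main comparison. The numbers 24 to 29 were taken as pairs, since deviations from group means correlated by 0.347 to 0.623 in every same-numbered pair, and the replicate block was an alternative, as were other pseudocounts, filters, fold limits and scalings, summed transcripts, and leaving out each sample. Exact permutation tests covered all 924 splits into 6 and 6, without regard to pairs. On simulated data, 192 of 200 genes changed by a log2 of 1.5 were recovered with 12 false calls. The simulation had independent noise without pairs and a smaller share of changed genes than the data. It does not tell how well smaller changes are recovered. Depth and fragments were recovered from low values of transcripts of at least 800 nucleotides, 99.4% to 99.9% of which came out whole within 0.05, and intervals cover counting error only. In each list, up to 3 of the largest rises and falls past the fold limit are named, with the nearest genes tested beside Hpx and the 5 most like it, and other list genes were named after their values were seen. The labels do not say what the numbers stand for, and the paper describes 6 independent experiments. SciPy 1.17.1, NumPy 2.4.6, and pandas 2.3.3 ran under Python 3.11.15, with plots from Matplotlib 3.10.9. The values of 1 gene of the NRF2 list are not reported here.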

Additional observations from a re-analysis of the deposited data

Results flagged for a closer look

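Of 52 groups of 6 samples examined among the 10 genes, the named list genes, and the neighbors of Hpx, 1 held a sample far from the others, while chance flags about 1 in 20. Flvcr2 in Ad-GFP sample 27 was at 0.479 FPKM, compared with 0.336 to 0.386 in the other 5, a gap of 0.648 of the whole range. All Ad-h-NR4A2 samples were above it, the lowest at 3.84 FPKM.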

How the results depend on the processing

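Of 188 fold changes of the 9 genes other than Hpx recomputed under alternatives, 169 kept their direction and side of the threshold, all of those of Hmox1, Hmox2, Ftl1, and Slc40a1 among them. Fth1 lost its adjusted p below 0.05 in 8 of 21. The direction of 3 genes that were never called turned when single samples were left out, with log2 fold changes from -0.10 to 0.14 for Cp, -0.12 to 0.12 for Hp, and -0.034 to 0.18 for Tfrc. With single samples left out, 1542 to 1769 of all genes, 2 to 3 of the 9 members, and 13 to 15 genes of the lists were differentially expressed, and 4 to 5 members had an adjusted p below 0.05. At a fold limit of 2, 803 of all genes and 7 list genes were differentially expressed, instead of 1662 and 14, and of the 9 members still 2. With the replicate block, 6 of the 9 had an adjusted p below 0.05 (Slc11a2 added), 2 were differentially expressed, and the lists held 15 such genes, C3 being added. With a mean FPKM of at least 1, Hp was not tested. Depth limits Hpx in Ad-GFP samples and Hp.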

Other observations

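Hemopexin, haptoglobin, and ceruloplasmin are acute phase proteins, and other genes of this class were mostly close to 0. Of 17 listed, 6 were above 0 in every sample and tested, and 3 were at 0 in all 12 samples. Orm1, which encodes alpha-1-acid glycoprotein, went up to 2.45 ± 0.634 FPKM from 0.407 ± 0.198 (SD, n = 6) without overlap of the groups (log2 fold change 2.43, SE 0.30, limma adjusted p = 2.68e-05). Itih4, an inter-alpha-trypsin inhibitor heavy chain, went up to 1.36 ± 0.187 FPKM from 0.747 ± 0.167 (log2 fold change 0.80, SE 0.15, limma adjusted p = 6.52e-04). Complement C3 had 0.765 ± 0.379 and 0.405 ± 0.164 FPKM (adjusted p = 0.111 without the replicate block and 0.00108 with it). With the block, 2 genes of the list were higher and 4 lower at an adjusted p below 0.05, where 59.4% of all genes passed in either direction. The median log2 fold change of the 6 tested was -0.31, although the 2 genes past the fold limit both rose.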
